A study of Mus musculus with 2 samples.

Results

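Pericytes and vascular smooth muscle cells are the mural cells that wrap the blood vessels of skeletal muscle, and 10 genes commonly used to mark them were followed in adult mouse gastrocnemius, a large calf muscle. The 10 genes were taken by symbol from the 55536 annotated genes, and each symbol matched 1 gene. Of these, 7 are used as pericyte markers (Rgs5, Abcc9, Kcnj8, Pdgfrb, Cspg4, Notch3 and Mcam) and 3 as smooth muscle markers (Myh11, Tagln and Cnn1). The data come from 1 group of 2 total RNA libraries, called replicate 2 and replicate 1 after their labels. Both were made from 300 ng of RNA of male B6CASTF1/J mice aged 2 months, hybrids of the laboratory strain B6 with the wild-derived strain CAST, and both carried ERCC spike-in RNA. The tissue samples are entered separately but share a donor entry, and the labels do not say that they came from separate animals. Any p-value therefore sets the difference between these 2 libraries against counting error alone, and not against a spread between animals. No treatment, mutation or control group is part of the design. Nothing but levels, isoform shares and the difference between the libraries can therefore be given.

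In capillaries pericytes sit against the endothelium and are recruited by platelet-derived growth factor B (PDGF-B), which acts on the receptor PDGFRβ. Arterial smooth muscle cells depend on the receptor NOTCH3 and contract through a smooth muscle myosin and actin with their regulators. Both cell types hold an ATP-sensitive potassium (KATP) channel, built of a pore subunit and a sulfonylurea receptor (SUR), whose opening relaxes vessels. Muscle fibres hold a KATP channel as well. In bulk tissue, fewer mural cells and less RNA per mural cell cannot be told apart.

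Annotated genes held 42280091 expected counts in replicate 2 and 42724520 in replicate 1. Muscle fibre RNA dominated both, with the skeletal actin gene Acta1 at 16647 TPM in replicate 2, against 18494 TPM in replicate 1. Markers of the other cell types followed here all had reads in both libraries, so no defining marker of endothelium, fibroblasts, Schwann cells or macrophages was at 0. TPM, a level in transcripts, is scaled by transcript length, so TPM may be compared between genes. Levels are from the first of 2 kinds of deposited table unless the second is named.

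Members with transcripts that differ in known ways are shown first by the sequences at issue, because the shares of their forms are given further on. The Abcc9 tails separate a muscle type from a vascular type of the gene. Each is exonic and was read from the GENCODE M21 transcript models on mm10, 5′ to 3′ in the sense of the RNA. The 15 bases in lower case end the exon that both alternatives share, and capitals mark the alternative part, up to but not including any stop codon. For Abcc9 the alternatives are the last coding stretch of SUR2A (chr6:142594008-142594142, minus strand) and of SUR2B (chr6:142590369-142590503, minus strand), which code for the last residues of the receptor.
SUR2A tail: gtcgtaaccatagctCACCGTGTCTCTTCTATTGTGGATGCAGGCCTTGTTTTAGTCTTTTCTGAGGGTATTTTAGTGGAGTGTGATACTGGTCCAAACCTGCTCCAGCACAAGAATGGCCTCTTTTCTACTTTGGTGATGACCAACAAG
SUR2B tail: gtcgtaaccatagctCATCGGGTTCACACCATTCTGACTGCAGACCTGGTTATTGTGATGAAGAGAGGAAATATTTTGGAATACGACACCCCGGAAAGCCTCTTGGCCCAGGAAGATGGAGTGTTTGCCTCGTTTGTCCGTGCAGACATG
The capital stretches are 135 bases each, and 69 positions (51.1%) are identical without gaps. Abcc9 also has an internal exon of 39 bases (chr6:142648027-142648065, minus strand) that some models skip, and its length keeps the reading frame.
Abcc9 39-base exon: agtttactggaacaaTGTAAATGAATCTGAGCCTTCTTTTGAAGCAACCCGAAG

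For Myh11, the smooth muscle myosin heavy chain, the alternatives are an insert of 21 bases in the motor domain, known as SM-B (chr16:14248580-14248600, minus strand), and the tails known as SM1 (chr16:14195055-14195184, minus strand) and SM2 (chr16:14198061-14198088, minus strand). Inclusion of an exon of 39 bases gives the SM2 tail, which is shorter than the SM1 tail.
Myh11 SM-B insert: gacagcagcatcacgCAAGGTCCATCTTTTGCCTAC
Myh11 SM1 tail: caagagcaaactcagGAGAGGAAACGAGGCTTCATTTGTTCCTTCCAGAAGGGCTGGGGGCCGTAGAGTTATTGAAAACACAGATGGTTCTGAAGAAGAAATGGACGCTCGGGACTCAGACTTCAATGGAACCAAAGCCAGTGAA
Myh11 SM2 tail: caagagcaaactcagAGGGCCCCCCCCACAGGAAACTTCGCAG
For Mcam, an adhesion receptor, an exon of 118 bases (chr9:44141275-44141392, plus strand) is present in the model with the long cytoplasmic tail and skipped in the model with the short tail.
Mcam tail exon: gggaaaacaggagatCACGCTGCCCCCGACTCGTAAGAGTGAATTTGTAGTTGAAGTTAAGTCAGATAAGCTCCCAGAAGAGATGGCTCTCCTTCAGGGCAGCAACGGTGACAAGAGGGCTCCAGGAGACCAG

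All 10 genes had reads in both libraries, and 9 of 10 reached 1 TPM in each. Their TPM summed to 149 in replicate 2 and 160 in replicate 1. Most of that sum came from Rgs5 and Abcc9, which together held 71.7% in replicate 2 and 68.4% in replicate 1. By mean TPM over the libraries (± SD, n = 2) the order was Rgs5 at 58.0 ± 2.02, Abcc9 at 50.3 ± 3.97, Tagln at 15.2 ± 5.73, Mcam at 7.35 ± 0.693, Myh11 at 6.73 ± 1.07, Pdgfrb at 6.14 ± 0.0566, Notch3 at 4.22 ± 0.0141, Kcnj8 at 3.61 ± 0.453, Cspg4 at 2.09 ± 0.226 and Cnn1 at 1.05 ± 0.184. The libraries' values overlapped between the neighbours Mcam and Myh11, and between Myh11 and Pdgfrb. All other neighbours in that order were apart in both libraries.

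**Figure D1:**
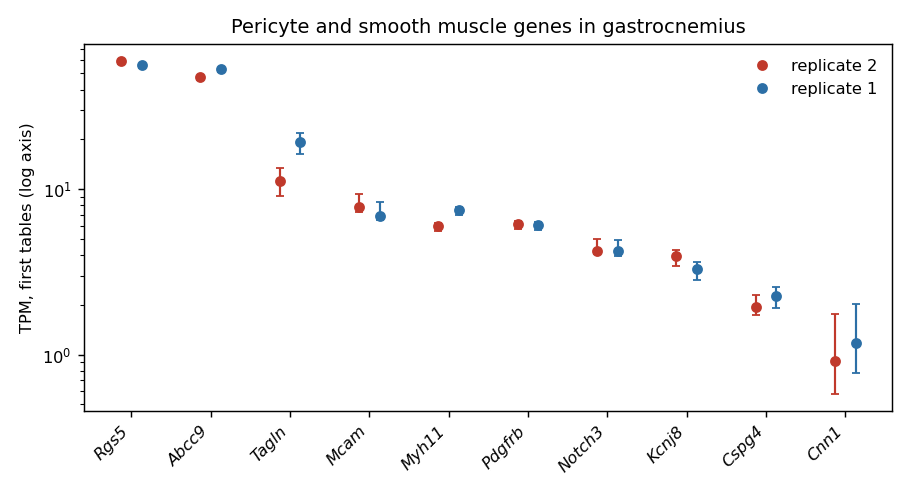
TPM of the 10 genes in the first tables on a log axis, replicate 2 in red left of replicate 1 in blue. Points are TPM, and bars are the 95% credibility interval of the posterior deposited with each table, which need not be centred on the point. Rgs5 and Abcc9 stand above 40 TPM, Tagln differs most between the libraries, and Cnn1 has the widest intervals.

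Rgs5 (chr1:169655501-169695813, plus strand) encodes a regulator that switches off signalling of G protein-coupled receptors, and is among the most used pericyte markers. It had 59.4 TPM in replicate 2 and 56.6 TPM in replicate 1, on 8113 and 7707 reads in that order, and ranked 825 among protein-coding genes by mean TPM. Of its 2 models the longer held 99.2% of its TPM in replicate 2 and 99.1% in replicate 1. Within the R4 family of RGS genes, to which Rgs5 belongs, it made up 88.8% of summed TPM in replicate 2 and 88.7% in replicate 1. The next members of that family were Rgs3, at 2.95 TPM in replicate 2, against 3.39 TPM in replicate 1, and Rgs4, at 2.33 and 2.34 TPM in the same order. Rgs5 was thus the only one of the 10 family members above 10 TPM, and 3 of the 10 had no read in either library, which allows up to 3 reads in each.

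The receptors stood lower. Pdgfrb, on chromosome 18, had 6.18 TPM in replicate 2 and 6.10 TPM in replicate 1, with all reads in 1 of its 2 models. Its ligand gene Pdgfb, which endothelium expresses, had 4.82 TPM in replicate 2 and 5.59 TPM in replicate 1. The related receptor gene Pdgfra, a fibroblast marker, had 4.27 TPM in replicate 2 and 6.50 TPM in replicate 1, so Pdgfrb lay above Pdgfra in replicate 2 and below it in replicate 1. The other ligand genes were Pdgfa, at 8.57 TPM in replicate 2, against 10.7 TPM in replicate 1, Pdgfd, at 1.46 and 1.27 TPM in the same order, and Pdgfc, under 1 TPM in both.

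Notch3 (chr17:32120820-32166852, minus strand), the Notch receptor of arterial smooth muscle and pericytes, had 4.23 TPM in replicate 2 and 4.21 TPM in replicate 1. It was the highest of the 4 Notch receptor genes by TPM in both libraries, with 31.8% of their sum in replicate 2 and 29.1% in replicate 1. By the deposited posterior mean TPM the order turned, with Notch3 at 4.47 in replicate 2 and 4.41 in replicate 1, below Notch4, at 5.07 and 5.50, and Notch1, at 4.61 and 4.88 in the same order. By TPM Notch4, known from endothelium, came next, at 3.48 TPM in replicate 2, against 4.13 TPM in replicate 1, which is within 0.1 TPM of Notch3 in replicate 1. Heyl, a target of NOTCH3 in mural cells, had 3.05 TPM in replicate 2 and 2.52 TPM in replicate 1. Of the ligand genes, Jag2 had 6.87 TPM in replicate 2, against 7.95 TPM in replicate 1, and Jag1, the ligand that endothelium shows to smooth muscle, 2.13 and 2.63 TPM in the same order.

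Cspg4 (chr9:56865033-56899870, plus strand) encodes NG2, a proteoglycan on pericytes that also marks some glial and progenitor cells. It had 1.93 TPM in replicate 2 and 2.25 TPM in replicate 1, though its reads ran the other way, with 459 in replicate 2 and 409 in replicate 1. Its single coding model held 74.0% of its TPM in replicate 2 and 34.4% in replicate 1, and models with a retained intron, which are shorter, held the rest. The full-length coding model alone was at 1.42 TPM in replicate 2, against 0.77 TPM in replicate 1. In the second tables it held 92.0% in replicate 2 and 56.2% in replicate 1. The direction of Cspg4 between the libraries thus differed between its TPM and its reads.

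Mcam (chr9:44134469-44142727, plus strand) encodes CD146, an adhesion molecule of pericytes, smooth muscle and endothelium. It had 7.84 TPM in replicate 2 and 6.86 TPM in replicate 1. Of the TPM in the models that differ by the 118-base exon, the long-tail model held 58.2% in replicate 2 and 78.8% in replicate 1. In the second tables it held 68.9% in replicate 2 and 80.8% in replicate 1, so the long tail prevailed in both libraries and both kinds of table. Of the 10 members it was raised most in the second tables, with 13.6 TPM in replicate 2 and 14.5 TPM in replicate 1 there. In those tables a model with a retained intron, Mcam-203, took 17.6% of TPM in replicate 2 and 31.5% in replicate 1, against 0% and 4.08% in the first tables in the same order.

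Taken over all forms of Abcc9, the genes for the subunits of the vascular KATP channel were far apart in level. The vascular type of Abcc9 alone, given further on, was nearer to Kcnj8. Abcc9 (chr6:142587862-142702315, minus strand), which encodes the receptor SUR2, had 47.5 TPM in replicate 2 and 53.1 TPM in replicate 1. Kcnj8 (chr6:142564837-142571614, minus strand), which encodes its vascular pore partner Kir6.1, had 3.93 TPM in replicate 2 and 3.29 TPM in replicate 1, on 312 and 260 reads in that order. The shorter of its 2 coding models held 50.1% of its TPM in replicate 2 and 52.0% in replicate 1, but 10.6% and 0% in the second tables in the same order. Kcnj8 and Abcc9 lie next to each other on the same strand, 16.2 kb apart. The other pore gene, Kcnj11, which encodes Kir6.2 of the muscle fibre channel, had 36.6 TPM in replicate 2 and 42.6 TPM in replicate 1, or 9.32 times the TPM of Kcnj8 in replicate 2 and 12.9 times in replicate 1. The other receptor gene, Abcc8 (SUR1), lies 3.76 kb from Kcnj11, and Abcc9 had 42.4 times its TPM in replicate 2 and 56.5 times in replicate 1. Of the 4 subunit genes, the SUR2 and Kir6.2 genes were therefore the abundant ones by TPM.

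**Figure D2:**
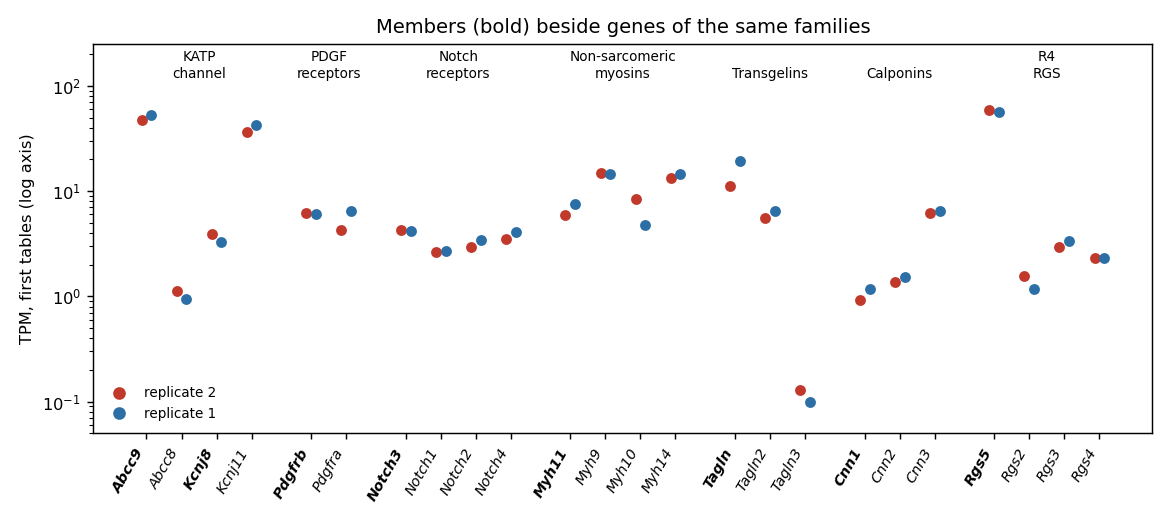
TPM in the first tables on a log axis for members (bold) beside genes of the same families, replicate 2 in red left of replicate 1 in blue. Rgs5 stands far above the other R4 genes shown, and Abcc9 stands far above Abcc8 and Kcnj8 but close to Kcnj11. Kcnj8 lies below Kcnj11 by 9.32 times in replicate 2 and 12.9 times in replicate 1, and Cnn1 is below Cnn3.

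The tails printed above separate the forms of Abcc9. SUR2A is known as the form of cardiac and skeletal muscle, and SUR2B as the form of vascular smooth muscle and pericytes. Of the TPM in models that reach the 3′ end, those with the SUR2A tail exon (176 bases with its untranslated part) held 85.2% in replicate 2 and 91.1% in replicate 1. In the second tables they held 90.0% in replicate 2 and 95.5% in replicate 1. The SUR2A type came to 39.2 TPM in replicate 2, against 47.1 TPM in replicate 1, and the only SUR2B model, Abcc9-203, to 6.84 and 4.62 TPM in the same order. Most Abcc9 RNA here was thus assigned to the muscle type, and the vascular type lay nearer in TPM to Kcnj8 than to Kcnj11. The deposited 95% credibility intervals of the SUR2B model ran from 4.54 to 8.30 TPM in replicate 2 and from 2.89 to 6.10 TPM in replicate 1, and so overlapped.

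The internal 39-base exon of Abcc9 was mostly skipped. Models with it held 28.0% of the TPM of full-length models in replicate 2 and 23.7% in replicate 1, and 40.3% and 36.1% in the second tables in the same order. The skipping model, Abcc9-204, has a SUR2A tail and was the most abundant of 6 models, with 69.9% of Abcc9 TPM in replicate 2 and 74.3% in replicate 1. The share of the 39-base exon moved by more than the libraries' spread between the kinds of table, and skipping prevailed in both kinds.

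The smooth muscle markers were led by Tagln (chr9:45929619-45936058, minus strand), which encodes the actin-binding protein transgelin (SM22). It had 11.2 TPM in replicate 2 and 19.3 TPM in replicate 1, on 401 and 660 reads in that order. It held 66.4% of the summed TPM of the 3 transgelin genes in replicate 2 and 74.7% in replicate 1. A model of 369 bases held 36.1% of its TPM in replicate 2 and 40.1% in replicate 1 on few reads, 37.4 and 71.6 in that order, and had no read in the second tables. Without models under 500 bases, an alternative chosen after seeing the data, Tagln had 7.13 TPM in replicate 2 and 11.6 TPM in replicate 1. Tagln overlaps the end of Pcsk7 on the other strand by 108 bases. It also overlaps the antisense gene Gm48529 by 3627 bases, which had 16 reads in replicate 2 and 23 in replicate 1. No source used here says whether the counting used strand, so how reads in these overlaps were assigned is not stated. The expected counts of Tagln were whole in both libraries, with no fraction of a read split off to another gene.

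Myh11 (chr16:14194535-14291372, minus strand) had 5.97 TPM in replicate 2 and 7.48 TPM in replicate 1. In the summed TPM of 4 non-sarcomeric myosin heavy chain genes, Myh11 held 14.1% in replicate 2 and 18.1% in replicate 1, below Myh9 and Myh14 in both libraries. The 21-base SM-B insert was in 23.6% of the TPM of its full-length models in replicate 2 and 24.9% in replicate 1, and in 30.4% and 33.2% in the second tables in the same order. The SM2 exon was in 4.62% in replicate 2 and 4.19% in replicate 1, and in 9.15% and 9.04% in the second tables in the same order. Models without the insert and with the SM1 tail were therefore the main Myh11 RNA in both libraries. The insert is known to be absent from the myosin of large arteries and common in small resistance vessels and phasic visceral muscle.

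Cnn1 (chr9:22099216-22109630, plus strand), which encodes smooth muscle calponin, was the lowest member, with 0.92 TPM in replicate 2 and 1.18 TPM in replicate 1 on 30 and 44 reads in that order. It held 10.8% of the TPM of the 3 calponin genes in replicate 2 and 12.8% in replicate 1, and Cnn3, which many cell types express, held most of the rest. A model of 370 bases held 60.9% of its TPM in replicate 2 and 35.6% in replicate 1 on 5.21 and 3.88 reads, and no read in the second tables. Without models under 500 bases Cnn1 came to 0.36 TPM in replicate 2, against 0.76 TPM in replicate 1. Its order against the other 9 members was the same by that measure, as the lowest of all.

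**Figure D3:**
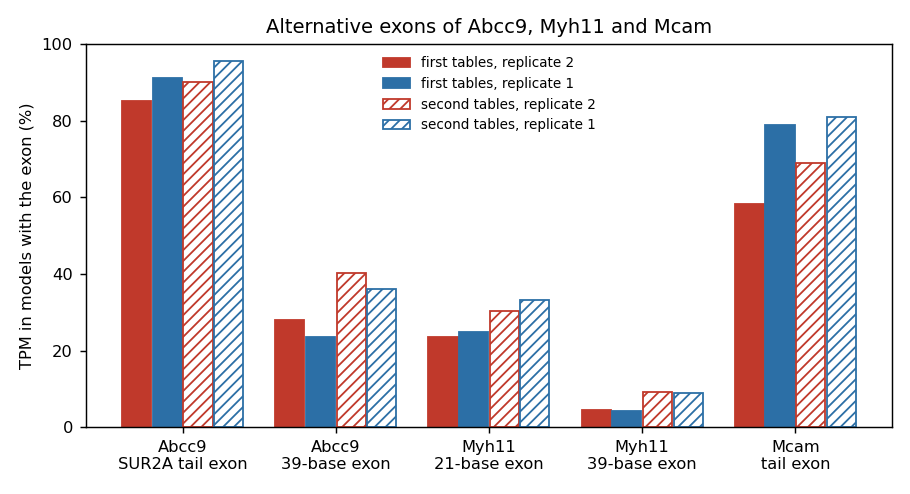
Share of TPM in models that include each alternative exon, among the models that include or skip it, in percent. Filled bars are the first tables and hatched bars the second, with replicate 2 in red left of replicate 1 in blue. The SUR2A tail exon is in 85.2% to 95.5% of Abcc9, while the Myh11 39-base exon is under 10% everywhere.

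The kind of table shifted members unequally. Second over first TPM lay between 1.12 and 2.11 for 9 of the members. The median over protein-coding genes of at least 1 TPM was 1.43 in replicate 2 and 1.5 in replicate 1. Only Mcam lay above it, at 1.73 and 2.11 in the same order, and every other member lay below it in both libraries. Tagln alone fell below 1, at 0.970 in replicate 2 and 0.928 in replicate 1. In the second tables Abcc9 had 67.5 TPM in replicate 2, against 79.3 TPM in replicate 1, and Rgs5 had 74.7 and 73.7 TPM in the same order, so the order of these 2 genes differed between the libraries there. Mcam and Tagln likewise overlapped in the second tables, where Tagln had 10.8 TPM in replicate 2 and 17.9 TPM in replicate 1.

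Between the libraries, 2 of the 3 smooth muscle markers were lower in replicate 2, and of the 7 pericyte markers 2 were higher and 1 lower. The counts were compared by a conditional binomial test, exact and two-sided, with Benjamini-Hochberg adjustment over the 14827 genes whose counts summed to at least 20. The test compares the reads of these 2 libraries, with no replicate check. An adjusted p under 0.05 was reached by 5 of the 10 members, 2 higher and 3 lower in replicate 2, where 26.2% of all genes tested were called, 14.4% higher and 11.7% lower. The split depended on the scaling, with 8 members called and 5 of them higher with spike-in scaling, and 1 higher with DESeq2 size factors, with total counts or without the filter on low counts. The shares over all genes tested are not matched for depth, and an exact test of counts calls deep genes more readily. Only 10054 of the 14827 genes had summed counts of at least 200, as did every member but Cnn1. No member was past a 2-fold difference, against 3.15% of all genes tested that were called and past it. The members' median log2 ratio of replicate 2 over replicate 1 was 0.09, against 0.00 over all genes tested. Of all genes tested, 95% lay between -0.89 and 0.97. That range narrowed to -0.50 to 0.74 where both libraries together held 200 counts or more. Among members that deep, only Tagln, at -0.67, fell outside the narrower range. Cnn1 had too few reads to be placed in it.

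**Figure D4:**
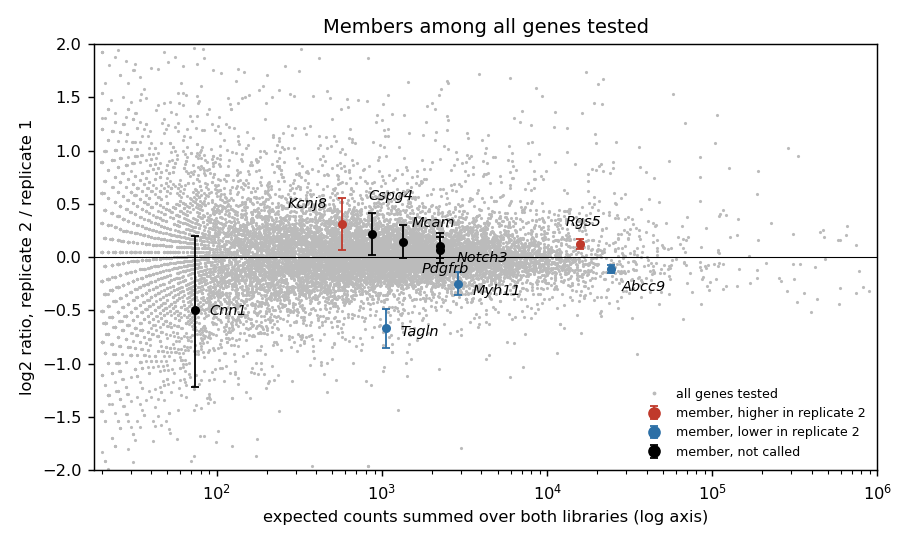
Log2 ratio of replicate 2 over replicate 1 against the expected counts summed over both libraries (log axis) for all genes tested (grey) and the 10 members, whose bars are exact 95% intervals for counting error. The vertical axis ends at 2 either way, which leaves out 89 genes. The horizontal axis ends below the counts of the deepest genes, such as Ttn and Myh4, which are left out as well. Tagln lies farthest from 0, and Cnn1, with the fewest reads, has the widest interval.

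Tagln differed most, at 0.629-fold in replicate 2 (log2 ratio -0.67, 95% interval -0.85 to -0.49; adjusted p = 1.8e-12, exact binomial test). Myh11 was lower in replicate 2 by less, with a log2 ratio of -0.25 (-0.36 to -0.14; adjusted p = 2.8e-05 by the exact test). Cnn1 had a ratio in the same direction, -0.50, but its interval, -1.22 to 0.20, included 0 and its adjusted p was 0.350 by the exact test. All 3 smooth muscle markers thus had fewer reads in replicate 2 than in replicate 1 on the TMM scale, and 2 of them were called. The TPM of Tagln per TPM of Rgs5 was 0.188 in replicate 2 and 0.341 in replicate 1, and 0.145 and 0.243 in the second tables in the same order.

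Other genes of the smooth muscle apparatus were divided, with 6 higher and 6 lower in replicate 2 of 26 tested. Acta2, smooth muscle actin, had 13.3 TPM in replicate 2 and 20.7 TPM in replicate 1 (log2 ratio -0.50), and Myl9, the regulatory light chain, 14.1 and 19.6 TPM in the same order (-0.52), both called lower in replicate 2. Higher in replicate 2 were Myh10, a non-muscle myosin heavy chain gene (log2 ratio 0.92), Pcp4l1 (0.89) and Kcnma1, the pore of the large-conductance potassium channel (0.51). Smtn (smoothelin) at 27.5 TPM in both libraries, Cald1 (caldesmon) and Mylk (myosin light chain kinase) were not called. Genes of the list that muscle fibres express too led it by level, such as Des and Tpm2, with Tpm2 at 2918 TPM in replicate 2, against 1683 TPM in replicate 1 (0.81, called higher). Next by level were Nexn (-0.07) and Synm (-0.35), both called lower in replicate 2, though Nexn not with spike-in scaling. Des was not called (0.01), but it was called lower with total counts (-0.02) and higher with spike-in scaling (0.06) and in the second tables (0.03). Myocd, the coactivator of smooth muscle genes, had 19 reads in replicate 2 and 41 in replicate 1 (-1.04; adjusted p = 0.0283 by the exact test), and its DNA-binding partner Srf was also lower, at 27.8 TPM in replicate 2, against 35.0 TPM in replicate 1 (-0.16). In all, 3 of 7 smooth muscle transcription factor genes tested, Myocd, Srf and Mrtfb (-0.21), were lower in replicate 2 and none higher. Over all genes tested, 11.7% were called lower and 14.4% higher. The call of Myocd was lost in the second tables (adjusted p = 0.216 by the exact test).

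Among the pericyte markers, Rgs5 was slightly higher in replicate 2, at a log2 ratio of 0.12 (0.08 to 0.17; adjusted p = 9.5e-07 by the exact test). Kcnj8 was higher by a log2 ratio of 0.31 (0.07 to 0.55; adjusted p = 0.0423 by the exact test), a call lost with DESeq2 size factors (0.0617), with total counts (0.0800) and without the filter on low counts (0.0648). Abcc9 was lower by the log2 ratio -0.11 (-0.15 to -0.08; adjusted p = 1.1e-08 by the exact test). Its SUR2B model, the vascular type, leaned the way of Kcnj8, with expected counts of 1694.5 (replicate 2) against 1143.15 (replicate 1). That model was not tested by itself, and its deposited credibility intervals, given above, overlapped. Opposite calls of the channel subunits thus hold for Abcc9 over all its forms, lower in replicate 2, against Kcnj8. Kcnj11 was lower too (-0.12; adjusted p = 0.00211 by the exact test), though not with spike-in scaling (0.129), and Abcc8 had 80 reads in replicate 2 and 119 in replicate 1 (-0.52; adjusted p = 0.0495 by the exact test), also lost with spike-in scaling (0.0769) and without the filter (0.0756). The TPM of Abcc8 ran opposite to its reads, at 1.12 in replicate 2 and 0.94 in replicate 1.

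The receptors were not called. The log2 ratio was 0.07 for Pdgfrb (-0.05 to 0.19), 0.11 for Notch3 (-0.01 to 0.23), 0.14 for Mcam (-0.01 to 0.30) and 0.21 for Cspg4 (0.02 to 0.41), each with its 95% counting interval. Their adjusted p-values by the exact test were 0.490, 0.204, 0.192 and 0.0976 in that order. With spike-in scaling Notch3, Mcam and Cspg4 passed the threshold as higher in replicate 2, at adjusted p = 0.0352, 0.0498 and 0.0271 by the exact test, and Cspg4 also passed in the second tables (0.0159). Pdgfrb passed under no alternative that was run.

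Beyond the members, 15 other pericyte markers summed to 173 TPM in replicate 2, against 185 TPM in replicate 1, and 2 were called higher and 3 lower in replicate 2. Art3, an ADP-ribosyltransferase gene that muscle fibres also express, held most of that sum, with 144 TPM in replicate 2 and 155 TPM in replicate 1. Of the others with the highest levels, Steap4, a metalloreductase gene, had 6.43 TPM in replicate 2, against 8.15 TPM in replicate 1 and was called lower (-0.29). Vtn (vitronectin) and Ndufa4l2, a mitochondrial protein gene, were not called, at 3.66 and 3.61 TPM in replicate 2 and 4.58 and 3.17 TPM in replicate 1.

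Of 7 PDGF genes tested, none was higher and 2 were lower in replicate 2, Pdgfa (-0.23) and Pdgfra (-0.57), and Pdgfb was not called. The call of Pdgfa was lost with spike-in scaling and in the second tables (adjusted p = 0.112 and 0.0703 by the exact test). Of 17 Notch pathway genes tested, 3 were higher, Heyl (0.31), the target Hes1 (0.48) and the ligand gene Jag2 (0.23). The 4 lower were the ligand gene Dll1 (-0.82), the target Nrarp (-0.50), the receptor gene Notch2 (-0.24) and Rbpj (-0.19). Rbpj encodes the DNA-binding partner of the cleaved receptor. Targets were thus called in both directions. The target Hey1 (-0.39) was not called, but it was called lower in the second tables (-0.57). Jag2 was called higher on 870 reads in replicate 2, against 767 in replicate 1, while its TPM, given above, was lower in replicate 2. The call of Rbpj was lost with spike-in scaling and in the second tables (adjusted p = 0.0743 and 0.329 by the exact test). Among the vasoactive receptor genes reported, S1pr1 (0.42) and Ednrb (0.47) were higher in replicate 2, and both are known from cells other than mural cells as well.

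Markers of other cell types differed between the same libraries. Of 14 endothelial markers 7 were higher and 1 lower in replicate 2, with summed TPM of 230 in replicate 2 and 215 in replicate 1 and a median log2 ratio of 0.15. Of 14 fibroblast markers 3 were higher and 9 lower, with 484 TPM in replicate 2, against 631 TPM in replicate 1 and a median of -0.40. None of 7 Schwann cell markers tested was called, and their list summed to 32.8 TPM in replicate 2, against 39.7 TPM in replicate 1. Of 8 macrophage markers 1 was lower, with 24.2 TPM in replicate 2 and 28.5 TPM in replicate 1 for the list. Of 10 muscle fibre markers 3 were higher and 7 lower, with summed TPM of 66422 in replicate 2 and 78655 in replicate 1, and with Myh7 of slow fibres at 529 TPM in replicate 2, against 204 TPM in replicate 1. The part of these cell types in the members' differences was not tested.

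**Figure D5:**
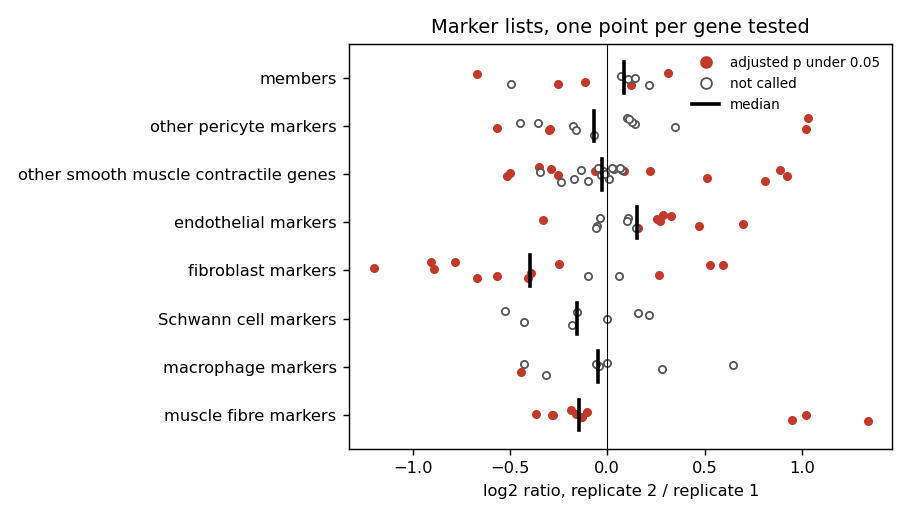
Log2 ratio of replicate 2 over replicate 1 for each gene tested in 8 marker lists, filled where the adjusted p was under 0.05, with the median as a black bar. The 10 members span -0.67 to 0.31, and the fibroblast list has the lowest median, -0.40.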

How the data were processed

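Total RNA of 2 gastrocnemius libraries was quantified against mm10 with GENCODE M21, per the notes deposited with the samples. Neither programs nor versions are stated in the sources used here. The first tables hold, per the file headers, expected counts, TPM and a posterior mean TPM, standard deviation and credibility bounds, read as scores deposited by the authors. The second tables list, per the file headers, TPM and estimated counts of each transcript, which were summed to genes. Alleles were not separated, and no source used here says whether counting used strand.

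Expected counts of the 10 members were whole to within 0.005 in both libraries; all were rounded for the test. Entries that name no gene, 26248 with numeric identifiers (0 reads in replicate 2 and 1 in replicate 1), were left out. Counts were scaled by TMM (edgeR 4.0.16, R 4.3.3), and replicate 2 was compared with replicate 1 by a conditional binomial test, exact and two-sided (scipy 1.17.1, Python 3.11.15), with Benjamini-Hochberg adjustment, on genes whose counts summed to at least 20, with 0.5 added before the log2 ratio. A quasi-likelihood test in edgeR needs replicates of 2 groups and was not possible. The test was tested on simulated counts that held counting error alone. Those counts cannot show how the test behaves where libraries differ by more than counting error. Intervals are exact Clopper-Pearson at 95%, and with the limit of 3 reads behind a count of 0 they cover counting error only. Alternatives were DESeq2 1.42.0 size factors, total counts, ERCC counts, no filter on low counts or a summed count of 200, 1 in place of 0.5, the second tables, posterior mean TPM, TPM over protein-coding genes alone, and each library alone.

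Exon shares are TPM of models with the exon over TPM of models that include or skip it. Genes named beside the members were drawn from the 4 highest by mean TPM in each list, lists of up to 7 genes, and genes whose role a sentence is about. Not all of these are named. Pcp4l1 falls outside that rule and is named as a gene called higher. Transcripts named had at least 5% of their gene's TPM in a library. Members and lists were chosen with earlier results of these data known. No promoter or protein sequence was used here. A result of the vasoactive receptor list is not reported here.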

Additional observations from a re-analysis of the deposited data

How the results depend on the processing

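The members' library ratios kept their direction under all 69 alternative values, and 62 also kept their side of the threshold. The alternatives to the filter on low counts leave the ratio of any gene unchanged by construction, and adding 1 in place of 0.5 hardly moved the members' ratios. Direction was therefore open to change only under the other scalings and the second tables. The count of members called was 5, and it was 8 with ERCC scaling. Those called higher in replicate 2 were 2, but 1 with DESeq2 size factors, with total counts and without the filter on low counts, and 5 with ERCC scaling; the 3 called lower stayed within 1.5 times in each alternative. Relative to TMM, the scalings shifted log2 ratios by -0.02 (DESeq2), -0.03 (total) and 0.05 (ERCC). Of 987 values of other listed genes, 962 kept their call (27 of them, called under neither, changed sign), 11 passed the threshold newly, 12 no longer passed, and 2 reversed, Des at -0.0239 with total counts and Mef2c at 0.0502 with ERCC scaling. The SUR2A exon share was 92.7% (mean) in the second tables, against 88.1% in the first, and 85.2% to 91.1% with one library left out. Mean TPM moved by more than 1 SD in 24 of 60 alternatives: second tables multiplied it by 0.943 (Tagln) to 1.91 (Mcam), protein-coding scaling by 2.13 to 2.14, the posterior mean by 0.982 (Kcnj8) to 1.18 (Cnn1), and leaving out models under 500 bases, which was chosen after seeing the data, by 0.533 (Cnn1) to 1.00 (Abcc9). The 60 include each library alone, which with 2 libraries always lies within 1 SD of their mean. Protein-coding scaling raised every member by nearly the same factor, so all of its values moved. The tally of 24 therefore says little about how steady the levels are. The cause of the other moves was not tested. No paired analysis was possible because the series holds 1 group. Depth limits Cnn1, with 30 and 44 reads, most.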
